A study of Mus musculus with 24 samples.

Results

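Pleural tumors of mice given LNP-CDN together with an anti-PD-L1 antibody were compared with pleural tumors of mice given the antibody alone, over 12107 autosomal genes of 50198 (54505 genes in the whole table). A gene was included when it reached an FPKM of 1 (reads scaled for gene length and library depth) in at least 3 of the 6 tumor libraries. Genes on X and Y were left out. The comparison asks what the nanoparticle adds once the antibody is present. The study measured bulk poly-A RNA in C57BL/6 mice whose pleural cavity carried LLC (Lewis lung carcinoma) tumors with a malignant effusion, in 24 libraries of 8 groups, 3 libraries in each. Every treatment was given into the pleural space on day 11, and samples were taken on day 13. The combination group received LNP-CDN, a nanoparticle carrying the cyclic dinucleotide cGAMP (1 µg), plus anti-PD-L1 clone 10F.9G2 (30 µg). The anti-PD-L1 group received the antibody, and the other 2 tumor groups received LNP-CDN or PBS. The same 4 treatments were measured in cells of the pleural fluid. The labels give 3 mice per treatment. Tumors were digested to a cell suspension and red cells were lysed, so each library mixes LLC cells with host cells, and the labels do not say whether a fluid and a tumor library came from the same mouse; the fits treat libraries as independent.

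cGAMP is the second messenger made by cGAS when DNA is found in the cytosol. It binds STING (Tmem173), which through TBK1 and IRF3 switches on type I interferon, and the interferon receptor then switches on a large set of interferon-stimulated genes through a transcription factor complex that contains IRF9. PD-L1 (Cd274) is an inhibitory ligand for PD-1 on T cells; it is itself induced by interferon-gamma, and the antibody blocks its contact with PD-1. In tumors rich in macrophages, myeloid cells as well as cancer cells can respond to cGAMP.

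The 6 tumor libraries held between 16884444 and 26888253 reads assigned to genes, as recovered from the FPKM values, and 12328 to 12595 genes of all chromosomes reached an FPKM of 1 in each. Sex markers split the groups. Ddx3y, a Y-linked gene, was at 0, 0.00738 and 0.00774 FPKM in combination tumors, against 3.44, 3.28 and 3.27 FPKM in anti-PD-L1 tumors; all 6 libraries carried Xist, at 72.8 to 80.3 FPKM in combination tumors and 63.3 to 72.4 FPKM in anti-PD-L1 tumors. The source of the Y-linked reads and the treatment cannot be told apart in this comparison. The split recurred in fluid, where Ddx3y was at 0 to 0.0111 FPKM in combination libraries and 21.6 to 23.6 FPKM in anti-PD-L1 libraries, with Xist at 63.4 to 66.6 FPKM in combination libraries and 8.18 to 20.0 FPKM in anti-PD-L1 libraries. PBS tumor replicate 1 also had Y-linked reads (Ddx3y at 3.55 FPKM), whereas the other PBS libraries of tumor and fluid were at 0.0117 to 0.0253 FPKM and LNP-CDN tumors at 0 to 0.00821 FPKM. Libraries of 1 group differed by more than counting noise, and p-values measure the spread between mice within groups.

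Combination tumors had a set of higher genes led by interferon-stimulated genes, and a smaller set of lower genes with smaller differences. Of 12092 genes tested, 210 (1.74%) differed at an adjusted p under 0.05 (limma on log2(FPKM + 1), Benjamini-Hochberg over all genes tested), with 156 higher (1.29%) and 54 lower (0.447%) in combination tumors. The higher genes had a median log2 difference of 0.77, and 51 of them differed at least 2-fold on the log2(FPKM + 1) scale. The lower genes had a median of -0.38, and 2 of them differed at least 2-fold. The median over all genes tested was 0.01. In bulk RNA such as this, fewer cells of a type and less RNA per cell cannot be told apart. In each of the 210 genes, the 3 combination and the 3 anti-PD-L1 libraries did not overlap, which held for 3077 (25.4%) of all genes tested.

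**Figure D1:**
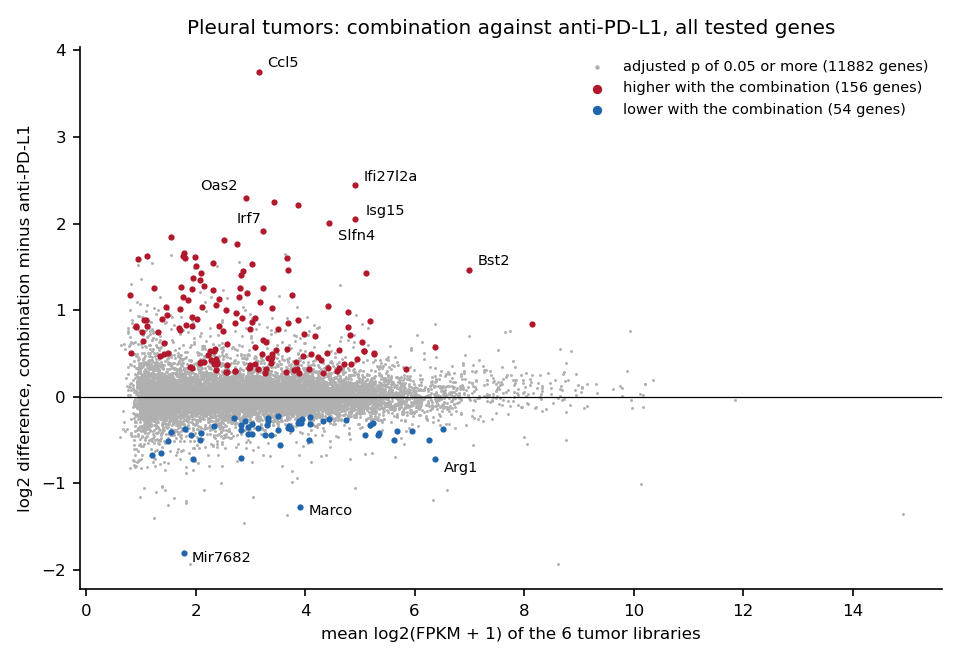
Log2 difference, combination minus anti-PD-L1 (y axis), against the mean log2(FPKM + 1) of the 6 tumor libraries (x axis) for every gene tested. The 156 higher genes (red) reach a log2 difference of 3.76 for Ccl5, while the 54 lower genes (blue) lie mostly close to 0, with Marco at -1.27 and the few-read entry Mir7682 at -1.81.

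Type I interferon-stimulated genes were the group with the most calls. Of the 48 genes on the list, all 48 were tested, 30 were higher and none was lower, with a median log2 difference of 1.08. In 46 of the 48 the combination and anti-PD-L1 libraries did not overlap, against 25.4% of all genes tested. Over all genes tested 1.29% were higher and 0.447% lower, the shares to set beside the calls of each list. The summed level of the list was 1047, 930 and 943 FPKM in combination tumors, against 597, 335 and 277 FPKM in anti-PD-L1 tumors. Anti-PD-L1 replicate 1 was the highest of its group in 47 of the 48 genes and lay above all combination libraries in 2 of them. Over all 12092 genes tested, these counts were 4381 and 3918. The number of list members higher was 46 without anti-PD-L1 replicate 1, 6 without combination replicate 1, and 13 without any other single library of the comparison.

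Among the regulators, Irf7, the transcription factor that amplifies type I interferon production, had 24.6, 21.2 and 21.9 FPKM in combination tumors, against 7.15, 3.89 and 2.06 FPKM in anti-PD-L1 tumors. All 3 combination libraries were well above the highest anti-PD-L1 library. The log2 difference was 2.24 ± 0.29 (SE, n = 3 and 3; limma adjusted p = 0.00686), and the call held when any 1 of the 6 libraries was left out. Irf9, a subunit of the transcription factor complex that interferon activates, had 11.0, 11.0 and 9.98 FPKM with the combination and 7.81, 4.91 and 3.52 FPKM with anti-PD-L1 (log2 difference 0.91 ± 0.19, limma adjusted p = 0.038). Usp18, which strips ISG15 from proteins and damps interferon receptor signalling, had 11.4, 10.5 and 11.4 FPKM with the combination, against 6.57, 2.69 and 2.10 FPKM with anti-PD-L1 (1.45 ± 0.26, limma adjusted p = 0.0233). The calls of Irf9 and Usp18 were lost in 5 of the 6 fits that left out 1 library.

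Antiviral effectors included several of the largest differences of the list. Ifi27l2a, a small interferon-induced protein (chr12:103442167-103443680), had 81.1, 63.5 and 64.3 FPKM in combination tumors, against 12.6, 10.4 and 12.8 FPKM in anti-PD-L1 tumors. The 2 groups were far apart, with little spread in either, and it had the smallest adjusted p of all genes (log2 difference 2.44 ± 0.21, limma adjusted p = 0.00128). The 7 listed genes of the OAS family were all higher; OAS enzymes such as Oas2 and Oas3 make the messenger that activates RNase L on sensing double-stranded RNA. Oas2 had 17.6, 15.2 and 14.6 FPKM with the combination, against 4.21, 1.80 and 1.74 FPKM with anti-PD-L1 (2.29 ± 0.21, limma adjusted p = 0.00169). Oas3 had 11.1, 8.81 and 9.30 FPKM with the combination, against 4.14, 1.82 and 0.943 FPKM with anti-PD-L1 (1.81 ± 0.28, limma adjusted p = 0.0111). Oas1a (1.92 ± 0.27) and Oas1g (1.61 ± 0.19) were also higher, but they are close copies that may share reads. In each of these 4 genes anti-PD-L1 replicate 1 was the highest of its group and still below every combination library.

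Ifit3, which binds IFIT1 on foreign RNA, had 33.6, 29.3 and 28.9 FPKM in combination tumors, against 11.7, 5.06 and 3.07 FPKM in anti-PD-L1 tumors (2.22 ± 0.34, limma adjusted p = 0.0107). It too has a near copy, Ifit3b. Isg15, the ubiquitin-like modifier, had 69.4, 49.8 and 63.6 FPKM with the combination, against 28.5, 9.09 and 9.89 FPKM with anti-PD-L1 (2.05 ± 0.35, limma adjusted p = 0.0202), with no overlap but with 1 anti-PD-L1 library about as far from the other two as from the combination. Its call was lost in 5 of the 6 fits without 1 library. Bst2, the tetherin that holds budding virus at the cell surface, was the most abundant higher gene of the list that is named here, at 235, 186 and 215 FPKM with the combination, against 123, 61.4 and 57.1 FPKM with anti-PD-L1 (1.47 ± 0.25, limma adjusted p = 0.0204). Ifit1, a cap-sensing relative of Ifit3, did not pass: it had 20.9, 21.3 and 20.5 FPKM in combination tumors and 12.2, 5.73 and 2.85 FPKM in anti-PD-L1 tumors (1.65 ± 0.37, limma adjusted p = 0.0519).

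Some sensors of nucleic acid were also higher. Ddx58, which encodes the RNA sensor RIG-I, had 14.6, 13.6 and 13.8 FPKM with the combination, against 8.51, 6.00 and 5.02 FPKM with anti-PD-L1 (1.02 ± 0.13, limma adjusted p = 0.0053). Ifi207, of the family of DNA-binding AIM2-like receptors, had 17.7, 15.3 and 16.2 FPKM with the combination, against 10.2, 8.76 and 7.20 FPKM with anti-PD-L1 (0.85 ± 0.11, limma adjusted p = 0.0053), and was the 1 gene called among 16 tested on the STING pathway and sensing list (median 0.04). STING itself, Tmem173, overlapped between the groups, at 24.5, 27.8 and 22.4 FPKM with the combination and 24.8, 20.9 and 19.8 FPKM with anti-PD-L1 (0.18 ± 0.10, limma adjusted p = 0.384). Irf3, the factor that STING signalling activates, had 9.70, 9.40 and 10.2 FPKM in combination tumors and 8.71, 7.48 and 7.09 FPKM in anti-PD-L1 tumors (0.30 ± 0.08, limma adjusted p = 0.079). The enzyme cGAS (Mb21d1) was below 1 FPKM in all 6 libraries.

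**Figure D2:**
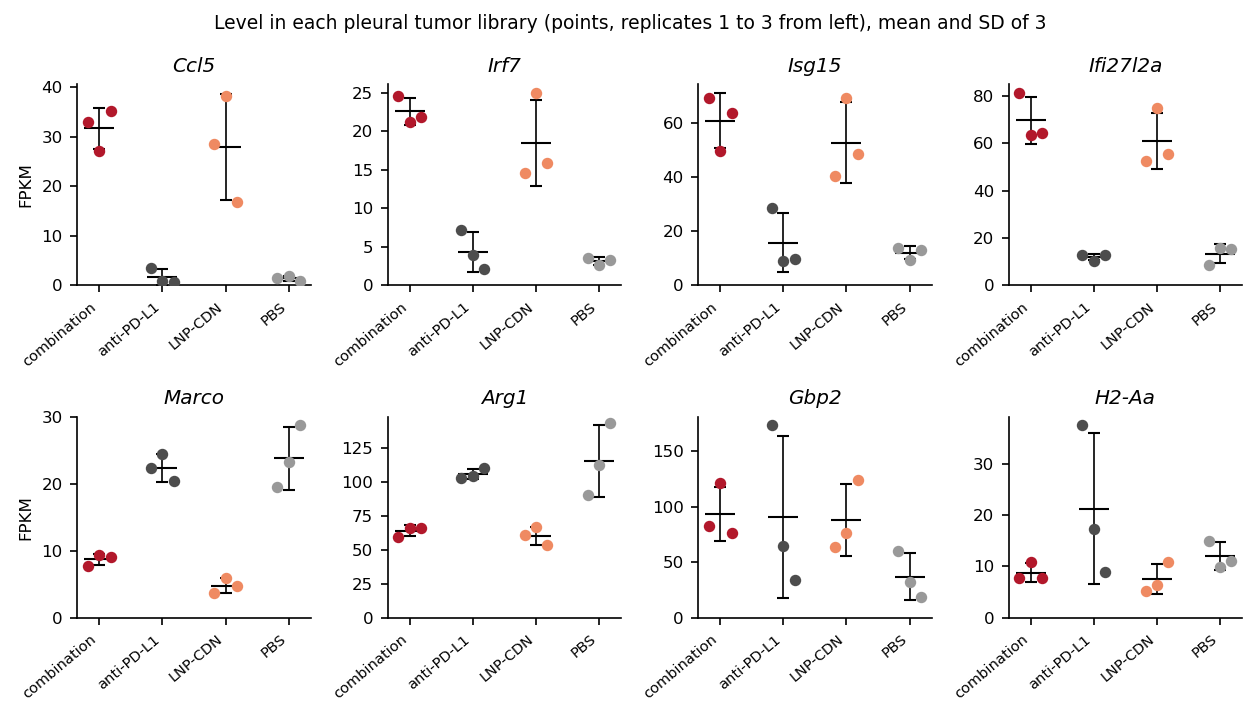
FPKM (y axis, linear from 0) of 8 genes in each of the 12 tumor libraries, with points for replicates 1 to 3 and lines for the mean and SD of 3. Ccl5, Irf7, Isg15 and Ifi27l2a are higher, and Marco and Arg1 lower, in both groups that received LNP-CDN, while Gbp2 and H2-Aa show anti-PD-L1 replicate 1 above the rest of its group.

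The promoters of several of these genes carry the tandem GAAA arrangement of the interferon-stimulated response element, so the sequence upstream of the start is shown for 4 interferon-stimulated genes together with Igtp, which was not called, Slfn4, which lacks the motif, and Marco, which was lower. The motif searched was GAAANNGAAA, which reads TTTCNNTTTC on the other strand, on both strands of the 250 bases before the RefSeq start (GRCm38.p6); matches may overlap. The 160 bases before the start are printed 5′ to 3′ in the direction of transcription, with matches in capitals.
Isg15: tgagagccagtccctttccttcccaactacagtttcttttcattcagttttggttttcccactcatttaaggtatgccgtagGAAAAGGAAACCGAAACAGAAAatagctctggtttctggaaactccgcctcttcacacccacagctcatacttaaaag
Ifit3: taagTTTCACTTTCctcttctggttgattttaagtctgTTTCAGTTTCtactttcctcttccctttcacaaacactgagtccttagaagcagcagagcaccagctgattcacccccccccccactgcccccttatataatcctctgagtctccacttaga
Oas1a: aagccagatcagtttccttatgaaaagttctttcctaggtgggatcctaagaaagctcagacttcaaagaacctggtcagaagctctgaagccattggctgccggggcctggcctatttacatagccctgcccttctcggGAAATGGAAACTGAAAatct
Oas1g: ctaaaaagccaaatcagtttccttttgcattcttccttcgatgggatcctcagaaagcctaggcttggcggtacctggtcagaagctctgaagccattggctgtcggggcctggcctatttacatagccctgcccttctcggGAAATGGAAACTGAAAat
Igtp: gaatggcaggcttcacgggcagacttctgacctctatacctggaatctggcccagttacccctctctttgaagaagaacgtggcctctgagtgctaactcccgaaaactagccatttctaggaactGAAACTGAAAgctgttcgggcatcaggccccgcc
Slfn4: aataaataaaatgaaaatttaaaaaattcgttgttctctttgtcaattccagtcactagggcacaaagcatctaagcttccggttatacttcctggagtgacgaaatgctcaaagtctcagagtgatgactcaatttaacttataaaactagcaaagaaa
Marco: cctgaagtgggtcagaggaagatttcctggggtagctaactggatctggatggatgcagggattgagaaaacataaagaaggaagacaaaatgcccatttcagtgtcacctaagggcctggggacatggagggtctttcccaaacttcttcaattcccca

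Isg15 (chr4:156200819-156200978, minus strand) has 3 overlapping matches, the farthest beginning 78 bases before the start, and Ifit3 (chr19:34583369-34583528, plus strand) has 2 separate matches in the opposite orientation, the farthest 156 bases before it. Oas1a (chr5:120907526-120907685, minus strand) and Oas1g (chr5:120887614-120887773, minus strand) each have 2 overlapping matches next to the start. With the 2 sequences lined up without gaps on their first match, 122 of 158 aligned bases (77.2%) are identical, and stretches out of register count as different. Igtp, an interferon-gamma response gene whose groups overlapped, has 1 match (chr11:58199396-58199555, plus strand). Slfn4 (chr11:83175026-83175185, plus strand), which rose, and Marco (chr1:120505025-120505184, minus strand), which fell, have none in this window. Among genes with a RefSeq promoter, 23 of 113 higher genes (20.4%), none of 36 lower genes and 240 of 8578 genes tested (2.8%) held the motif. The share was 15 of 35 (42.9%) on the type I interferon list, and 11 of 23 (47.8%) among its higher genes. On the interferon-gamma list it was 11 of 17 (64.7%). The part of the motif in the calls was not tested.

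Slfn4, a schlafen of myeloid cells named for its large difference, had 53.7, 34.1 and 41.8 FPKM in combination tumors, against 13.7, 8.31 and 8.25 FPKM in anti-PD-L1 tumors (log2 difference 2.01 ± 0.22, limma adjusted p = 0.00339). The lowest combination library was above the highest anti-PD-L1 library. Apol9b (1.77), Ifi44 (1.66) and Ifi206 (1.63), interferon-induced genes, were also among the 15 largest; Apol9b has a near copy.

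Interferon-gamma response genes gave no call. Of 27 listed genes, 25 were tested and none passed, with a median log2 difference of 0.45 and 24 positive differences. The summed level was 448, 537 and 398 FPKM in combination tumors, against 732, 263 and 181 FPKM in anti-PD-L1 tumors. Anti-PD-L1 replicate 1 was the highest of its group in all 25 genes and above every combination library in 23, whereas replicates 2 and 3 were below every combination library in 24. Over all 12092 genes tested, these 3 counts were 4381, 3918 and 2603. Gbp2, an interferon-gamma-inducible GTPase, had 82.8, 121 and 76.5 FPKM with the combination and 173, 64.4 and 33.8 FPKM with anti-PD-L1 (0.33 ± 0.54, limma adjusted p = 0.812). Igtp, of the immunity-related GTPases, had 42.1, 49.2 and 36.9 FPKM with the combination and 69.9, 21.6 and 13.7 FPKM with anti-PD-L1 (0.60 ± 0.50, limma adjusted p = 0.596). In both genes 1 antibody-only tumor was the highest and another the lowest of the 6. For this list the SEs allow differences in either direction.

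**Figure D3:**
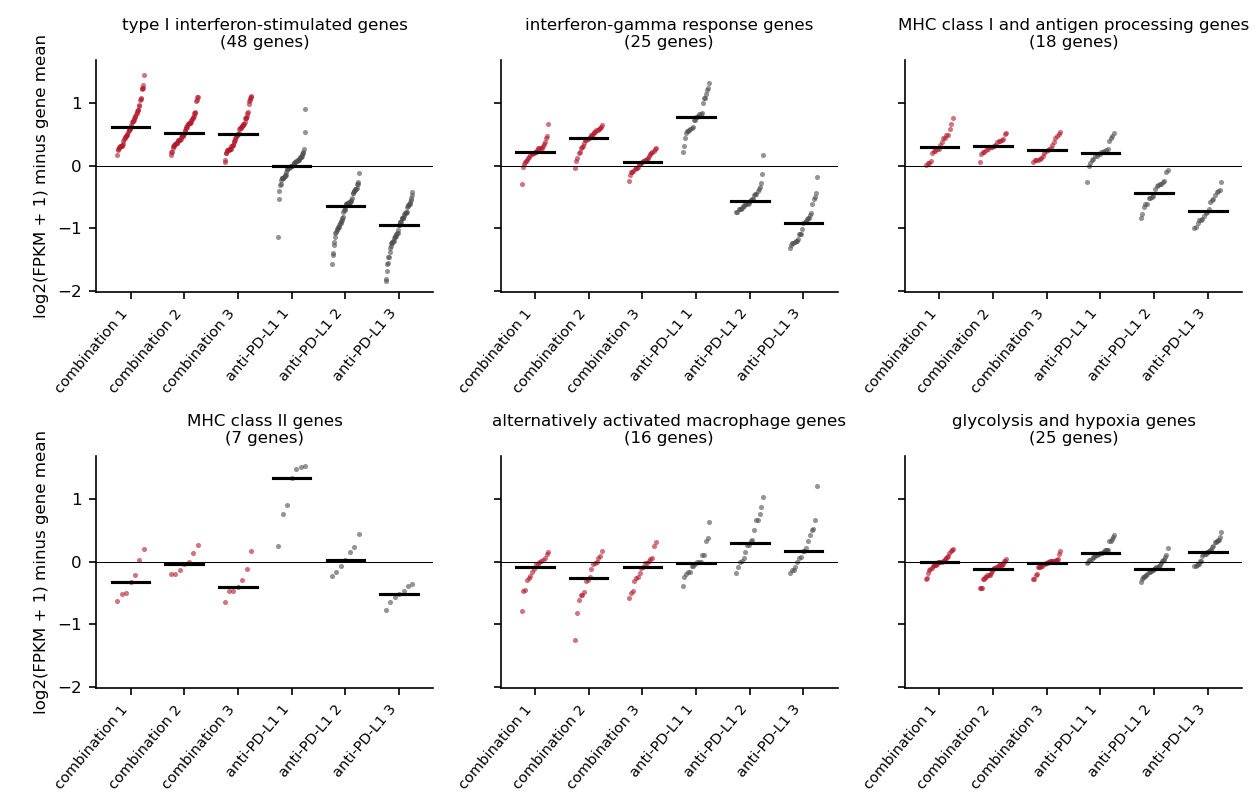
Each gene's log2(FPKM + 1) minus its mean over the 6 libraries (y axis), for 6 lists; points are genes and bars the median of a library. On the interferon-gamma list the anti-PD-L1 medians are 0.77, -0.56 and -0.91, spanning the combination medians of 0.21, 0.44 and 0.06, while on the type I list the combination medians of 0.61, 0.53 and 0.50 lie above the anti-PD-L1 medians of -0.01, -0.65 and -0.95.

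MHC class I genes had positive differences and class II genes mostly negative ones, with few calls. All 18 tested genes of MHC class I presentation had a positive difference (median 0.59), and 3 passed, all non-classical or Qa class I genes. H2-Q6 had 22.1, 18.2 and 18.3 FPKM in combination tumors, against 12.5, 6.57 and 6.18 FPKM in anti-PD-L1 tumors (1.18 ± 0.20, limma adjusted p = 0.0202), and H2-Q7, a near copy of it, differed by 1.15 ± 0.21. H2-T24 had 9.04, 8.39 and 8.95 FPKM with the combination, against 4.92, 4.85 and 3.10 FPKM with anti-PD-L1 (0.91 ± 0.13, limma adjusted p = 0.00796). The classical heavy chain H2-K1, which presents peptide to CD8 T cells, did not overlap but did not pass, at 287, 267 and 276 FPKM with the combination and 249, 148 and 116 FPKM with anti-PD-L1 (0.76 ± 0.23, limma adjusted p = 0.12). Its light chain B2m had 1325, 1262 and 1218 FPKM with the combination and 1125, 637 and 580 FPKM with anti-PD-L1 (0.76 ± 0.22, limma adjusted p = 0.105). Without anti-PD-L1 replicate 1, 14 of the 18 class I genes passed, and without combination replicate 1 none did.

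None of the 7 tested MHC class II genes passed, and their median difference was -0.52. H2-Aa, the class II alpha chain that presents peptide to CD4 T cells, had 7.75, 10.9 and 7.69 FPKM in combination tumors and 37.6, 17.4 and 8.84 FPKM in anti-PD-L1 tumors (-0.98 ± 0.40, limma adjusted p = 0.254). Anti-PD-L1 replicate 1 was the highest of its group in all 7 genes and above every combination library in 6, against 4381 and 3918 of the 12092 genes tested. The summed class II level was 230, 261 and 227 FPKM with the combination and 423, 227 and 150 FPKM with anti-PD-L1, so the sign of the difference between the summed means rests on 1 antibody-only library.

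Ccl5 showed the largest difference of all genes tested. It encodes a chemokine that draws T cells, NK cells and monocytes (chr11:83525778-83530518). It had 33.0, 27.1 and 35.1 FPKM in combination tumors, against 3.46, 0.863 and 0.684 FPKM in anti-PD-L1 tumors. Every combination library was several times above the highest anti-PD-L1 library. The log2 difference was 3.76 ± 0.36 (limma adjusted p = 0.00169), and the call held without any 1 of the 6 libraries. T and NK cells are known sources of CCL5, and their part in this difference was not tested. Of 12 NK markers 2 were tested, and they had opposite signs (Klra4, an inhibitory receptor, -0.44 ± 0.15; Gzma, a granzyme, 0.88 ± 0.22; neither passed). The summed NK markers overlapped, at 10.9 to 12.7 FPKM with the combination and 11.1 to 18.6 FPKM with anti-PD-L1. The summed T cell markers also overlapped, at 6.69 to 7.97 FPKM with the combination and 5.80 to 10.6 FPKM with anti-PD-L1.

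Of 26 tested chemokines and receptors, Ccl5 and 2 others passed, all higher, with a list median of 0.32. Ccl12, a monocyte attractant acting through CCR2, had 30.5, 25.9 and 33.8 FPKM with the combination, against 13.0, 10.2 and 20.1 FPKM with anti-PD-L1 (1.05 ± 0.22, limma adjusted p = 0.039). Ccl11, the eotaxin that acts through CCR3, had 4.47, 4.22 and 4.02 FPKM with the combination, against 1.36, 2.25 and 1.73 FPKM with anti-PD-L1 (0.93 ± 0.13, limma adjusted p = 0.00796). The groups did not overlap in either gene. Among ligands of CXCR3, Cxcl9, which is also on the interferon-gamma list, had 14.5, 19.6 and 11.3 FPKM with the combination and 29.2, 8.47 and 4.76 FPKM with anti-PD-L1 (0.42 ± 0.60, limma adjusted p = 0.783). Cxcl10 had 17.2, 17.3 and 14.9 FPKM with the combination and 20.5, 5.28 and 4.82 FPKM with anti-PD-L1 (0.92 ± 0.41, limma adjusted p = 0.296). In both genes anti-PD-L1 replicate 1 was the highest of the 6. Cxcl11, another CXCR3 ligand, did not pass the level filter, at 0.444, 0.587 and 0.233 FPKM with the combination and 0.303, 0.0643 and 0.146 FPKM with anti-PD-L1.

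Lymphocyte transcripts were scarce in these suspensions. Of 16 T cell markers 1 was tested, Thy1, which fibroblasts also express. Cd3e was at 0.211, 0.301 and 0.138 FPKM in combination tumors and 0.431, 0.227 and 0.124 FPKM in anti-PD-L1 tumors, and Cd8a at 0.562, 0.612 and 0.420 FPKM with the combination and 1.28, 0.322 and 0.0417 FPKM with anti-PD-L1. Cd4, Foxp3 and Ncr1, which mark helper and regulatory T cells and NK cells, were below 1 FPKM in all 6 libraries. Of 10 tested cytotoxic effector genes Ccl5 was the 1 that passed. Gzmb, a protease of killer cells, had 3.55, 4.38 and 3.78 FPKM with the combination and 6.77, 2.07 and 0.317 FPKM with anti-PD-L1 (0.63 ± 0.51, limma adjusted p = 0.588). Prf1, the pore-forming perforin, differed by 0.13 ± 0.39.

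Of 13 tested checkpoint genes, Lgals9, which encodes the TIM-3 ligand galectin-9, was higher, with 38.6, 31.9 and 35.5 FPKM in combination tumors against 26.0, 18.1 and 20.0 FPKM in anti-PD-L1 tumors (0.71 ± 0.13, limma adjusted p = 0.0233; lost in 5 of 6 fits without 1 library). The list median was 0.08. Cd274, the target of the antibody, had 14.4, 14.1 and 13.6 FPKM with the combination and 16.2, 7.79 and 6.53 FPKM with anti-PD-L1 (0.53 ± 0.24, limma adjusted p = 0.306). It repeated the pattern in which 1 antibody-only tumor stood above and the other 2 below the combination.

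Myeloid genes moved in both directions. Ly6c2, the surface marker of inflammatory monocytes, had 7.47, 5.36 and 5.55 FPKM with the combination, against 2.82, 1.30 and 1.03 FPKM with anti-PD-L1 (1.44 ± 0.21, limma adjusted p = 0.00825). Ms4a4c, a monocyte marker that interferon also induces, had 14.5, 12.9 and 11.5 FPKM with the combination, against 6.14, 3.62 and 2.37 FPKM with anti-PD-L1 (1.53 ± 0.22, limma adjusted p = 0.00796). They were the 2 called among 14 tested monocyte markers (median 0.13, 9 positive differences). The summed monocyte markers, in which abundant genes weigh most, were lower, at 395 to 421 FPKM with the combination and 451 to 550 FPKM with anti-PD-L1. Of 15 tested macrophage markers Ms4a7 and Fcgr1 rose (median 0.31). Ms4a7, a tetraspan membrane protein, had 5.96, 7.34 and 5.94 FPKM with the combination, against 3.77, 3.11 and 3.20 FPKM with anti-PD-L1 (0.76 ± 0.11, limma adjusted p = 0.00806). The summed macrophage markers were 763 to 834 FPKM with the combination and 581 to 736 FPKM with anti-PD-L1, without overlap.

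Il1rn, which encodes the antagonist of the interleukin-1 receptor, had 7.66, 6.08 and 6.16 FPKM in combination tumors, against 2.55, 1.86 and 2.33 FPKM in anti-PD-L1 tumors (1.23 ± 0.16, limma adjusted p = 0.00718). It was the 1 called among 22 tested inflammatory cytokine and NF-kB genes (median 0.07), and its call held without any 1 library. Tnf differed by 0.15 ± 0.25, and Il6 did not pass the level filter. Mmp8, the neutrophil collagenase, had 6.79, 3.66 and 4.61 FPKM with the combination, against 1.33, 1.97 and 1.19 FPKM with anti-PD-L1 (1.25 ± 0.17, limma adjusted p = 0.00796), and was the 1 called of 12 tested neutrophil markers (median 0.53). The alarmin S100a8 had 32.0, 17.3 and 15.0 FPKM with the combination and 12.9, 10.8 and 12.4 FPKM with anti-PD-L1 (0.71 ± 0.24, limma adjusted p = 0.159). The summed neutrophil markers were 176, 116 and 115 FPKM with the combination, against 93.1, 85.0 and 98.7 FPKM with anti-PD-L1, without overlap. Without the antibody, the summed neutrophil markers overlapped, at 125 to 160 FPKM with LNP-CDN and 141 to 204 FPKM with PBS. The summed type I interferon list did not, at 729 to 971 FPKM with LNP-CDN and 319 to 408 FPKM with PBS. The part of the neutrophil markers in the other results was not tested.

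Marco and Arg1 fell, the 2 called of 16 tested genes of alternatively activated macrophages (list median -0.34, with 4 positive differences). Marco, a class A scavenger receptor of macrophages, had 7.73, 9.39 and 8.99 FPKM in combination tumors, against 22.3, 24.4 and 20.4 FPKM in anti-PD-L1 tumors (-1.27 ± 0.15, limma adjusted p = 0.0053). It was the 1 lower gene whose call held without any 1 library. Arg1, arginase 1, had 59.2, 66.2 and 66.1 FPKM with the combination, against 103, 104 and 110 FPKM with anti-PD-L1 (-0.72 ± 0.14, limma adjusted p = 0.0293). Both genes had tight, separate groups. The mannose receptor Mrc1 differed by -0.03 ± 0.22. The haemoglobin scavenger receptor Cd163 had 3.91, 2.12 and 2.89 FPKM with the combination and 4.35, 9.04 and 7.75 FPKM with anti-PD-L1 (-0.99 ± 0.27, limma adjusted p = 0.0895), without overlap.

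Egln3 and Pdk1, of the glycolysis and hypoxia list, were among the lower calls. Egln3, a prolyl hydroxylase that is itself induced by HIF, had 62.6, 63.9 and 65.4 FPKM in combination tumors, against 98.7, 77.8 and 97.2 FPKM in anti-PD-L1 tumors (-0.50 ± 0.09, limma adjusted p = 0.0233). Pdk1, the kinase that holds pyruvate out of mitochondrial oxidation, had 13.1, 13.5 and 12.9 FPKM with the combination, against 20.1, 16.7 and 20.4 FPKM with anti-PD-L1 (-0.50 ± 0.08, limma adjusted p = 0.0111). In both genes anti-PD-L1 replicate 2 was nearest to the combination. They were the 2 called of 25 tested glycolysis and hypoxia genes (median -0.12, 6 positive differences). The summed list overlapped, at 3019 to 3165 FPKM with the combination and 2943 to 3648 FPKM with anti-PD-L1. Ero1l, the disulfide oxidase of the endoplasmic reticulum, fell by 0.49 ± 0.10 on the log2 scale, and Bnip3l, a mitophagy receptor chosen after its values were seen, by 0.41 ± 0.07. Idh1, the cytosolic isocitrate dehydrogenase, had 27.8, 30.3 and 26.6 FPKM with the combination, against 39.9, 39.6 and 36.6 FPKM with anti-PD-L1 (-0.44 ± 0.06, limma adjusted p = 0.00796).

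Extracellular matrix genes gave 2 higher and 1 lower call among 37 tested (median -0.14). Mmp12, the macrophage elastase, had 10.7, 9.88 and 9.64 FPKM with the combination, against 4.68, 4.50 and 6.19 FPKM with anti-PD-L1 (0.86 ± 0.12, limma adjusted p = 0.00796). Mmp13, a collagenase, had 5.97, 4.81 and 4.92 FPKM with the combination, against 2.55, 1.09 and 0.851 FPKM with anti-PD-L1 (1.37 ± 0.23, limma adjusted p = 0.0188). Timp2, an inhibitor of such metalloproteinases, had 79.0, 76.2 and 82.3 FPKM with the combination, against 99.2, 107 and 103 FPKM with anti-PD-L1 (-0.38 ± 0.07, limma adjusted p = 0.0275). None of the 3 overlapped. Other lower genes with a matrix or mesenchymal role were Itga10, a collagen-binding integrin subunit (-0.65 ± 0.11), Lrrc15, a marker of cancer-associated fibroblasts (-0.56 ± 0.12), and the transcription factor Sox9 (-0.44 ± 0.09). Col1a1, the main fibrillar collagen chain, differed by -0.21 ± 0.22, and none of 11 tested fibroblast markers passed. The summed fibroblast markers were 448 to 460 FPKM with the combination and 515 to 596 FPKM with anti-PD-L1, without overlap, and their part in the lower calls was not tested.

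No cell cycle gene passed among 30 tested (median 0.04). Mki67, the proliferation antigen, had 51.2, 58.6 and 50.2 FPKM in combination tumors and 48.7, 57.8 and 56.2 FPKM in anti-PD-L1 tumors (-0.02 ± 0.11). Of 14 tested p53 target genes Mdm2, which encodes the ubiquitin ligase of p53, was higher, with 20.9, 20.4 and 22.2 FPKM with the combination against 17.5, 17.9 and 16.7 FPKM with anti-PD-L1 (0.27 ± 0.05, limma adjusted p = 0.0346). The angiogenesis, sterol, unfolded protein response, complement, cell death and TGF-beta lists gave no call. Of 20 listed angiogenesis genes 13 were tested, and Vegfa, Vegfb and Angpt1 were not. On the unfolded protein response list 13 of 20 genes did not overlap, 12 of them higher, against 25.4% of all genes tested. Its summed level was 1273 to 1291 FPKM with the combination and 1121 to 1186 FPKM with anti-PD-L1. Endothelial markers also gave none of 12. Skeletal muscle markers varied between libraries of 1 group, summing to 156, 31.5 and 66.2 FPKM with the combination and 44.2, 133 and 19.3 FPKM with anti-PD-L1, and none of 11 tested passed.

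Most of the called genes differed in the same direction between LNP-CDN and PBS tumors, which did not receive the antibody. LNP-CDN and PBS tumors share no library with the combination and anti-PD-L1 tumors, although their spread enters the same fit. Of the 156 higher genes, 151 (96.8%) had a positive LNP-CDN minus PBS difference, with a median of 0.50, against 6496 (53.7%) of all genes tested. Of the 54 lower genes, 53 (98.1%) had a negative one, with a median of -0.32, against 5595 (46.3%) of all genes tested. Without PBS replicate 1, the PBS tumor with Y-linked reads, the counts were 153 of the higher genes, against 5978 (49.4%) of all genes tested, and 53 of the lower genes, against 6112 (50.5%); this alternative was chosen after seeing the data. The LNP-CDN minus PBS log2 difference was 3.53 for Ccl5, 2.14 for Ifi27l2a and 2.20 for Irf7.

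Whether the LNP-CDN effect differed with and without the antibody was tested as an interaction, and no gene passed. The smallest limma adjusted p was 0.990, 449 genes had an unadjusted p under 0.05, and limma-voom on recovered reads also called 0. The interaction was 0.22 ± 0.51 for Ccl5, 0.30 ± 0.29 for Ifi27l2a and 0.04 ± 0.41 for Irf7. Interactions of several times their SE did not pass either, as for Marco, Ccl11 and Mmp12 below. Changes of the effect by the antibody of that size or smaller can therefore have been missed. Marco was lower in both comparisons. It had 3.67, 5.92 and 4.72 FPKM in LNP-CDN tumors, against 19.5, 23.2 and 28.8 FPKM in PBS tumors, and its interaction was 0.84 ± 0.22. The interaction was 0.72 ± 0.19 for Ccl11 and 0.73 ± 0.17 for Mmp12, and neither these genes nor Marco passed.

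**Figure D4:**
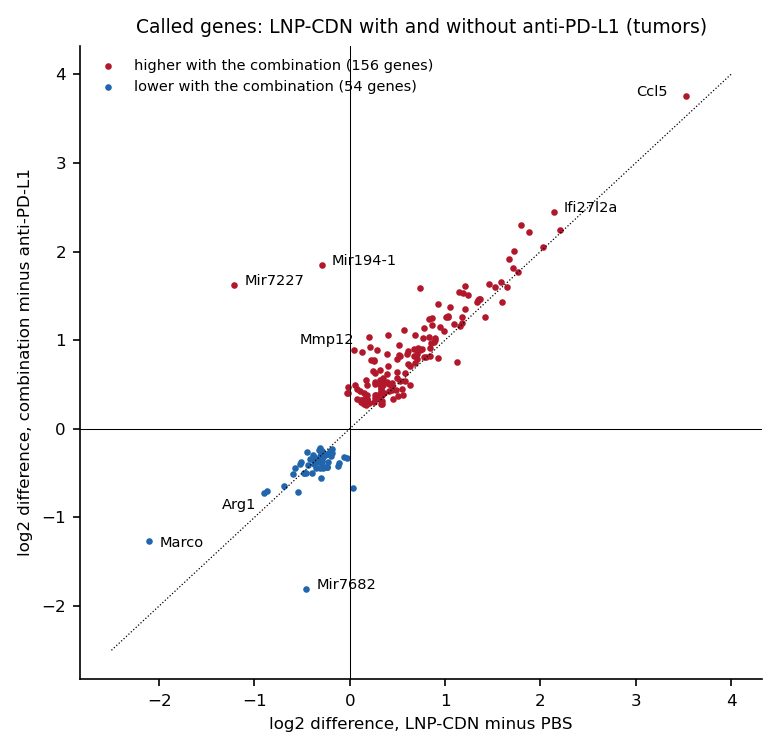
Log2 difference of the 210 called genes, combination minus anti-PD-L1 (y axis) against LNP-CDN minus PBS (x axis); the dotted line marks equal values. Genes were chosen by the test of the y axis difference, whose spread comes from all 12 tumor libraries, and 151 of 156 higher and 53 of 54 lower genes have the same sign on the x axis.

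In the cells of the pleural fluid the same comparison also gave the same sign for most of the called genes, namely 134 of the 156 higher genes (85.9%, against 45.0% of all genes tested) and 47 of the 54 lower genes (87.0%, against 54.8%). The fluid groups carry the sex-marker split given above, which cannot be told apart from treatment there either. The size often differed: the difference between tumor and fluid passed for 2878 of 12091 genes (23.8%; limma, Benjamini-Hochberg), positively for 1765 (14.6%) and negatively for 1113 (9.21%). Among the 156 higher genes it passed for 71, and among the 54 lower genes for 17. Ifit3 differed more in fluid, with a mean of 212 FPKM in combination fluid and 13.7 FPKM in anti-PD-L1 fluid (tumor minus fluid -1.80 ± 0.52, limma adjusted p = 0.0174). Oas2 differed more in tumors, with means of 98.8 FPKM in combination fluid and 39.7 FPKM in anti-PD-L1 fluid (0.99 ± 0.26, limma adjusted p = 0.0106). Ccl5, with means of 173 FPKM in combination fluid and 13.9 FPKM in anti-PD-L1 fluid, did not pass (0.09 ± 0.52).

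Of the 210 calls, 18 held in all 6 fits that left out 1 library: Ccl5, Ifi27l2a, Oas2, Irf7, Slfn4, Oas1g, Oasl1, Mmp8, Il1rn, Gm19951, Slfn1, Ddx58, Ifi207, Rnf130, Cd53, Ms4a7, Basp1 and Marco; those not described above were listed for this property, after their values were seen. The total was 18 without combination replicate 1, 345 without anti-PD-L1 replicate 1, and 49 to 93 without any of the other 4 libraries. Among genes described above, the calls of Isg15, Bst2, Irf9, Usp18, H2-Q6, H2-Q7, Ccl12, Lgals9, Mmp13, Fcgr1, Arg1, Timp2, Lrrc15, Itga10, Sox9 and Mdm2 held in 1 of the 6 fits. The calls draw on the spread within all 4 tumor groups. With the 6 compared libraries alone, 5 genes passed: Ifi27l2a, Marco, Arg1, Il1rn and Ccl5. Among the largest differences were 3 small-RNA entries that rest on few reads. Mir194-1 had 2.68, 6.30 and 5.41 FPKM with the combination, against 0.477, 0 and 1.51 FPKM with anti-PD-L1, and its call and those of Mir7227 and Mir7682 were lost with limma-voom and without the level filter.

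**Figure D5:**
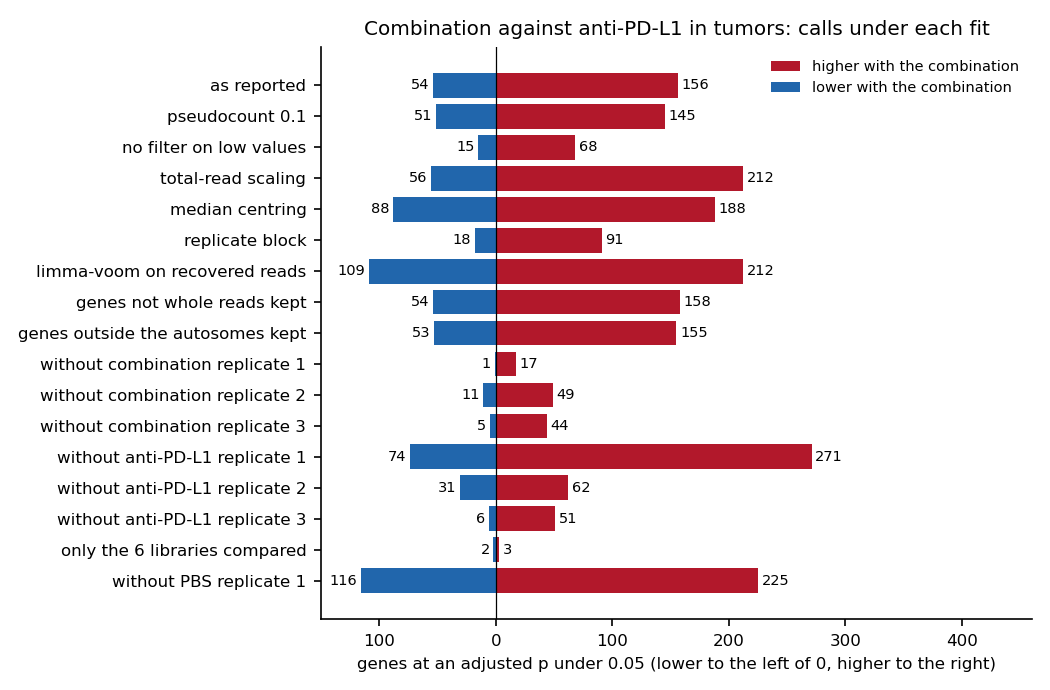
Number of genes at a limma adjusted p under 0.05 (x axis, higher to the right of 0 and lower to the left) under each fit (y axis). Calls number 210 as reported, 18 without combination replicate 1 and 345 without anti-PD-L1 replicate 1.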

How the data were processed

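Poly-A RNA of pleural tumor cells and pleural fluid cells was sequenced from unstranded libraries, per the labels' protocols. Per the submitters' processing notes, the tools were featureCounts, STAR, DESeq2 and fastp (versions and roles not given) and the build was mm9; gene coordinates in the deposited table match GRCm38 for 53474 of 54383 identifiers and are given as GRCm38. The authors deposited FPKM per gene, and multiplying FPKM by length returned read numbers within 0.01 of an integer for 99.9197% to 99.9236% of genes in each compared library; 15 members for which it did not were left out of tests. FPKM values were transformed to log2(FPKM + 1), which understates changes of low genes, and tested with limma 3.58.1 (trend, two-sided, R 4.3.3) over 12 tumor libraries in 1 fit, or all 24 for the difference from fluid, with Benjamini-Hochberg adjustment over all genes tested and a threshold of 0.05. The script was tested on simulated data. Exact permutation of 3 against 3 libraries cannot go below p = 0.1. Depth (16884444 to 26888253 reads) limits low genes. Named genes were up to 15 higher and 15 lower with the largest difference, up to 5 called members per list, and fixed core genes. For the difference from fluid, up to 4 per direction were added. Genes named outside this rule, including Gbp2, Igtp, H2-Aa, H2-K1, B2m, Klra4 and Gzma, were chosen after their values were seen. The members and lists were chosen with earlier results of these data known. Alternatives changed the pseudocount, filter, scaling, replicate block, test, gene set and libraries. Figures were drawn with matplotlib 3.10.9 in Python 3.11.15. Promoters are RefSeq, GRCm38.p6. Ifnb1, Ifng and Vegfa were among the genes whose values are not whole reads at the listed length. Some genes are not reported here.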

Additional observations from a re-analysis of the deposited data

Results flagged for a closer look

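The results below met 1 rule: the difference between combination and anti-PD-L1 tumors differed from the same difference in pleural fluid cells at an adjusted p under 0.05 (limma, all 24 libraries). This was so for 2878 genes. Sex markers split the 2 treatments in both tissues, by more in fluid, and cannot be told apart from treatment. Values are the log2 difference in tumors minus that in fluid, and a negative value means that the fluid difference was the more positive.

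Among interferon-stimulated genes, the value was -3.98 for Ifit1bl1, -1.80 for Ifit3, -1.61 for Ifi44, -1.24 for Ifi206, -1.14 for Apol9b and -0.78 for Ddx58, while Oas2 had 0.99. Ifit1bl1 averaged 80.9 FPKM in combination fluid and 2.18 FPKM in anti-PD-L1 fluid, against tumor means of 1.63 FPKM with the combination and 0.572 FPKM with anti-PD-L1. Tmem173, which encodes STING, had -0.85, and perforin (Prf1) had -1.72. Class I genes had -1.81 for H2-Q6, -1.18 for H2-Q7 and -1.02 for H2-T24.

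Myeloid genes gave -2.20 for Mmp8, -2.02 for Ly6c2, -1.81 for Ccl12, -1.48 for Ms4a7, -1.33 for Ms4a4c and -3.11 for the transmembrane glycoprotein gene Gpnmb. Ly6c2 averaged 295 FPKM in combination fluid and 27.4 FPKM in anti-PD-L1 fluid. The platelet chemokine gene Ppbp had -3.11 and the endothelial lipase gene Lipg had -3.22. Macrophage receptors had positive values, 4.30 for Lyve1 and 1.91 for Cd163: Lyve1 averaged 6.45 FPKM in combination fluid and 403 FPKM in anti-PD-L1 fluid, against 3.59 FPKM in combination tumors and 12.1 FPKM in anti-PD-L1 tumors.

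Mki67, the proliferation antigen gene, had 1.36: it averaged 10.3 FPKM in combination fluid and 29.3 FPKM in anti-PD-L1 fluid, while the tumor means were 53.3 FPKM with the combination and 54.2 FPKM with anti-PD-L1. The remaining values were 2.93 for Mmp3 (stromelysin), 2.82 for Adm (adrenomedullin), 1.38 for Timp2, 0.90 for Txnrd3, 0.89 for Egln3, -0.48 for Pdk1 and -0.52 for Itga10. Small-RNA entries with few reads had 2.71 for Mir7688 and -2.36 for Mir7682.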

How the results depend on the processing

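The count of 210 calls stayed within 1.5 times under a pseudocount of 0.1, total-read scaling, median centring, and with genes outside the autosomes or not whole reads kept (196 to 276). It was 83 without the filter on low values (29572 genes tested), 321 with limma-voom on recovered reads, 5 with only the 6 compared libraries, and 341 without PBS replicate 1, which enters the spread only. Leaving out 1 of the 6 libraries gave 18 (without combination replicate 1) to 345 (without anti-PD-L1 replicate 1). Apart from the filter and the fewer samples, the cause was not tested. The tumor libraries share only a replicate number across treatments (correlations of same-numbered deviations 0.03, 0.03 and 0.12 for the 2 compared groups); with the replicate block there were 109 calls. No named gene that was called reversed its direction under these settings. The directions of genes that were not called were not checked, and overlapping groups leave their sign open. The interaction gave 0 calls under every alternative run. The difference from fluid gave 2038 to 3668 genes without 1 library and 2724 to 3197 under the other settings. Calls rest on 3 mice a group, and low genes on few reads.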

Other observations

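Among cell type markers outside the main comparison's calls, hepatocyte transcripts were high in 1 library: the summed hepatocyte markers were 3.14, 2.38 and 1.27 FPKM in combination tumors, against 3.49, 73.8 and 3.83 FPKM in anti-PD-L1 tumors. Erythroid markers summed to 2.34 to 2.72 FPKM in combination tumors and 4.58 to 10.3 FPKM in anti-PD-L1 tumors, over the 4 of 9 listed genes found in the table. Most of that gap lay in the X-linked gene Alas2. It had 1.21, 1.36 and 1.46 FPKM with the combination and 8.92, 4.14 and 3.89 FPKM with anti-PD-L1. Epor, the 1 erythroid gene tested, had a log2 difference of 0.12 and did not pass. Eosinophil markers had no tested gene although the eotaxin gene Ccl11 was higher, with a summed level of 0.284 to 1.15 FPKM with the combination and 0.763 to 1.39 FPKM with anti-PD-L1. Of 13 lung epithelium markers 1 was tested and did not pass.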
